A study of Mus musculus with 4 samples.

Results

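Microglia, the resident macrophages of the brain parenchyma, and the macrophages that line its borders are told apart by a small set of transcripts. Here 9 such genes, out of the 32285 in the count tables, were followed across the cell types of the mouse posterior hindbrain. They were taken as a named set of textbook identity genes and comprise Tmem119, P2ry12, Cx3cr1, Csf1r, Siglech, C1qa, Trem2, Mrc1 and F13a1. All 9 were found by their identifiers. Their levels were read in 39461 nuclei kept by the authors, which carry 14 cell type names. Of these nuclei, 1118 (2.83%) belong to the 3 immune types, which the authors named after a leading gene as Tmem119.Immune, F13a1.Immune and Ms4a4b.Immune. The names of both main types thus rest on members of the set, and the clusters were made from the same nuclei, so that differences between cell types are given as descriptions without a test.

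The tissue was the portion of hindbrain holding the area postrema (AP) and the nucleus tractus solitarius (NTS), from C57BL/6 mice of both sexes aged 12 to 20 weeks. All mice received CNO, the ligand of the designer receptors, at 3 mg per kg intraperitoneally and were left without food for 1 h before tissue was taken. Nuclei were sorted by FACS on DraQ5, a DNA dye, and 4 libraries were prepared with the 10x Genomics 3′ chemistry, which counts transcripts as unique molecular identifiers (UMIs). In 2 libraries the mice were AgRP-Gq;POMC-Gi, that is AgRP-IRES-Cre+/-;hM3DGqfl/-;POMC-Dre+/-;hM4DGifl/-. These mice express the activating receptor hM3DGq where Cre is made from the Agrp locus and the inhibitory receptor hM4DGi where Dre is made in POMC neurons. The other 2 libraries came from controls, called WT in the labels, which by the study's methods carry both receptor alleles but neither recombinase. Neither recombinase was designed to act in microglia or macrophages, and recombinase or receptor transcripts were not measured in these types here. The study's methods give 2 mice per group, with samples of 1 condition pooled. The labels do not tie mice to libraries, so that p-values here measure the spread between libraries.

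Microglia settle in the brain in embryonic life and depend on signalling through CSF1R, the receptor for CSF1 and IL-34. In the steady state they express receptors for cues from neurons and other cells, such as the purine receptor P2RY12 and the fractalkine receptor CX3CR1, and they make complement C1q. Border macrophages of the meninges, perivascular spaces and choroid plexus share CSF1R and C1q with microglia and are marked by the mannose receptor MRC1 (CD206). In rodents the area postrema is a circumventricular organ with permeable capillaries. The position of the nuclei within the tissue was not measured here.

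The members lie on 9 chromosomes, and their gene models range from 2.887 kb for C1qa to 183.067 kb for F13a1. RefSeq promoter windows of 300 bases, from 250 before to 50 after a transcript start on GRCm38.p6, matched 6 of the 9 members, with 7 windows in all. Shown here are 1 window each of P2ry12 and Siglech, which marked Tmem119.Immune nuclei, and of Mrc1 and F13a1, which marked F13a1.Immune nuclei, so that both programmes can be compared by sequence. Capitals mark matches, on either strand, to GGAAGT (the core bound by ETS factors), to GAGGAAGT (a form bound by PU.1, the ETS factor of myeloid cells, which contains the ETS core) or to TTGCNNAA (a form bound by C/EBP factors). The windows are P2ry12 at chr3:59262936-59263235 on the minus strand, Siglech at chr7:55767934-55768233 on the plus strand, Mrc1 at chr2:14229164-14229463 on the plus strand and, for F13a1, the second of 2 windows at chr13:37049164-37049463 on the minus strand.
P2ry12: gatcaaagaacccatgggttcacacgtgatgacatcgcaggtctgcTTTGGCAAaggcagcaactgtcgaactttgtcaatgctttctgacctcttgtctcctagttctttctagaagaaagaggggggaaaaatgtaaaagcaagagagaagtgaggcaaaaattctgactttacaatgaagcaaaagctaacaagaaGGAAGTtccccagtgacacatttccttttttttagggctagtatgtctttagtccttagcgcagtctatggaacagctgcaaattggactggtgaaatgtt
Siglech: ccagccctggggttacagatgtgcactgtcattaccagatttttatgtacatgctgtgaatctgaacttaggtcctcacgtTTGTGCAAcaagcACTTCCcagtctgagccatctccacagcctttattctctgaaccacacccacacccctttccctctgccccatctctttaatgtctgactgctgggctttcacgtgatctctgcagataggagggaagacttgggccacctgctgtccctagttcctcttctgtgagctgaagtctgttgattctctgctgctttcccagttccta
Mrc1: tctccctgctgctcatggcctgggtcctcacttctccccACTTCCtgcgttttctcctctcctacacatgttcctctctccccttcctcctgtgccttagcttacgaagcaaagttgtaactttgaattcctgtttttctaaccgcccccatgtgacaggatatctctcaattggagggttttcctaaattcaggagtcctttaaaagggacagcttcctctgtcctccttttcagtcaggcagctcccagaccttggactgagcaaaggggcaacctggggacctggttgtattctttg
F13a1: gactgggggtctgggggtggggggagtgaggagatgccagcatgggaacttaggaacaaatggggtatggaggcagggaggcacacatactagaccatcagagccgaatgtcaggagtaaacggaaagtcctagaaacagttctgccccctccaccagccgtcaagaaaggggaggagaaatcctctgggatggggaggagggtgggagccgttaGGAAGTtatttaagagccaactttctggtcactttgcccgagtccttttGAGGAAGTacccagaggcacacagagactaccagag

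The 4 windows shown are those of the 7 member windows that hold the ETS core, which was not found in the Trem2, Cx3cr1 and first F13a1 windows. It lies in 23.8% of the 32851 RefSeq promoter windows of the mouse. The C/EBP form was found in the P2ry12 window at -204 and in the Siglech window at -169 relative to the transcript start, and also in the Trem2 window at 23. It lies in 10.8% of all windows. The PU.1 form was found only in the second F13a1 window, at 15, against 3.20% of all windows. The Cx3cr1 window and the first F13a1 window held none of the motifs searched. The other motifs searched on both strands were TGCTGAC (MAF, 4.67% of all windows), GAAANNGAA (IRF, 8.56%), CTATTTATA (MEF2, 0.429%) and TATAAA (a core promoter motif, 13.6%), and none of these was found in a member window. A match is a description of the letters and not of a bound site.

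The libraries held between 9723 and 10051 kept nuclei each. The Tmem119.Immune type comprised 969 nuclei (225 to 260 per library, median 1871 UMIs), the F13a1.Immune type 88 nuclei (15 to 37 per library, median 1712 UMIs) and the Ms4a4b.Immune type 61 nuclei (11 to 21 per library, median 1472 UMIs). Neurons, at a median of 8704 UMIs, and oligodendrocytes, at 2460, were deeper, so that shares of nuclei with a UMI are also given after each nucleus was thinned to 800 UMIs. Choroid plexus had as few as 2 nuclei in a library and was left out of orderings and tests. Between libraries, 168 barcodes were shared, with 0 among the immune nuclei. CPM are UMIs of a gene scaled to 1000000 UMIs of the same library and cell type. Xist, a transcript of the inactive X chromosome, is made in female cells. In Tmem119.Immune nuclei it stood at 1310, 731 and 1571 CPM in 3 libraries. AgRP-Gq;POMC-Gi replicate 2 had 15.3 CPM of Xist there and 0 CPM in F13a1.Immune and Ms4a4b.Immune nuclei. This library stands apart in this way and is left out in turn below. The labels give no sex by library, and no comparison of genotypes here included sex.

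Marker lists of several cell types were also read in the nuclei of the immune types. Summed over 6 microglia markers, Tmem119.Immune nuclei had 4920 ± 395 CPM and F13a1.Immune nuclei 910 ± 111 CPM (SD, n = 4 libraries, as throughout). Summed over 6 border macrophage markers, F13a1.Immune nuclei had 8115 ± 2366 CPM against 7.88 CPM in Tmem119.Immune nuclei, where F13a1, Lyve1 and Pf4 were all at 0. Both lists hold members of the set, so that these sums are no independent check of the names. Of the border macrophage sum in F13a1.Immune nuclei, F13a1 gave 4065 CPM and Mrc1 2508 CPM. Of the microglia sum in Tmem119.Immune nuclei, Cx3cr1 gave 1084, Siglech 990, P2ry12 862 and Tmem119 152 CPM. Ms4a4b.Immune nuclei, which had 4833 ± 1616 CPM over 8 lymphocyte markers and 1013 CPM over 6 monocyte and neutrophil markers, had markers of several kinds of leukocyte under 1 name. RNA of other cells was also present: over 6 oligodendrocyte markers the sum was 875 to 1168 CPM in Tmem119.Immune, 513 to 1572 CPM in F13a1.Immune and 457 to 4551 CPM in Ms4a4b.Immune nuclei. Over 5 neuron markers it was 428 to 868, 210 to 1565 and 254 to 4167 CPM, with the highest F13a1.Immune value in AgRP-Gq;POMC-Gi replicate 2 and the highest Ms4a4b.Immune value in control replicate 1.

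All 9 members had their highest mean CPM in an immune type. Tmem119, P2ry12, Cx3cr1, Csf1r, Siglech and Trem2 were highest in Tmem119.Immune nuclei and higher there than in F13a1.Immune nuclei in each of the 4 libraries. Mrc1 and F13a1 were highest in F13a1.Immune nuclei in each library, and C1qa did not separate the types. With choroid plexus left aside, the nearest type outside the immune types stood 5.08-fold below the highest for Cx3cr1, 6.90-fold below it for P2ry12 and further below it for the other 7 members, where the nearest values rest on few UMIs.

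**Figure D1:**
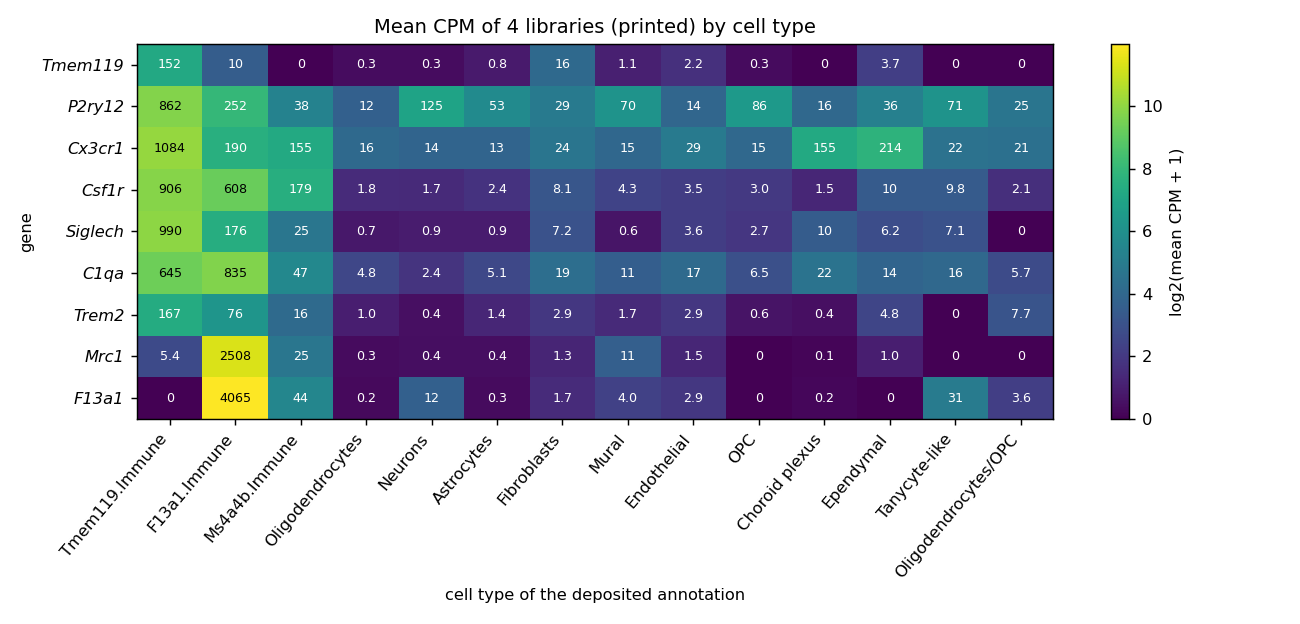
Mean CPM over 4 libraries of the 9 members (rows) in the 14 cell types (columns), with the mean printed in each cell and colour on a scale of log2(mean CPM + 1). The 3 left columns are the immune types and hold the highest mean of each member, while P2ry12 at 125 CPM in neurons and Cx3cr1 at 214 CPM in ependymal cells and 155 CPM in choroid plexus stand out among the other types.

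Tmem119, a transmembrane protein used as a marker of microglia, was read at 165 and 145 CPM in the control libraries and at 137 and 162 CPM in those of AgRP-Gq;POMC-Gi mice, with a mean of 152 ± 13.6 CPM in Tmem119.Immune nuclei. A UMI was found in 25.5% of these nuclei (95% exact interval 22.8 to 28.4%), and in 12.1% after thinning. The gene that gives the type its name was thus missed in most of its nuclei at this depth. Fibroblasts came next at 16.2 ± 4.66 CPM (30 of 819 nuclei), 9.37-fold lower, and their range overlapped that of F13a1.Immune nuclei at 10.5 CPM. As a background level, 0.089% of oligodendrocytes and 0.287% of neurons had a UMI.

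P2ry12, the receptor through which microglial processes follow ADP and ATP, stood in Tmem119.Immune nuclei at 796 and 678 CPM in controls and at 1076 and 900 CPM in AgRP-Gq;POMC-Gi mice. These groups did not overlap, as for 35.5% of the 6588 genes tested in this type. The mean of 862 ± 169 CPM was 3.42-fold that of F13a1.Immune nuclei (252 ± 42.3 CPM), and the ratio within a library ran from 2.29 to 4.17. Neurons followed at 125 ± 8.53 CPM, and the 3 ranges did not overlap. A UMI was found in 74.2% of Tmem119.Immune nuclei and in 58.7% of neurons, but thinning to 800 UMIs left 47.6% and 9.60%.

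Cx3cr1, the receptor for the neuronal chemokine CX3CL1, was read in Tmem119.Immune nuclei at 1049.50 and 897 CPM in controls and at 1074 and 1318 CPM in AgRP-Gq;POMC-Gi mice (mean 1084 ± 174). It was found in 80.0% of these nuclei, and in 55.1% after thinning. F13a1.Immune nuclei had 190 ± 64.2 CPM, with a ratio of 5.70 between the means and of 3.84 to 9.77 within libraries. Ependymal cells, at 214 ± 47.3 CPM, overlapped F13a1.Immune nuclei in range, and so did Ms4a4b.Immune nuclei at 155 ± 139 CPM.

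Siglech, a sialic acid binding lectin of microglia and plasmacytoid dendritic cells, was read at 980, 908, 1000.4 and 1073 CPM in Tmem119.Immune nuclei (mean 990 ± 67.7) and in 76.0% of them. These values lay above all F13a1.Immune values, whose mean was 176 ± 71.3 CPM. Of its UMIs 9.21% came from outside the immune types, the lowest share of any member, although fewer nuclei there had a UMI of Mrc1 (0.188%), Tmem119 (0.263%) or Trem2 (0.370%) than of Siglech (0.378%). Fibroblasts, the next type, had a mean of 7.23 CPM from 11 UMIs, with 22.2 and 6.68 CPM in the control libraries and 0 in the others. In neurons, 0.646% of nuclei had a UMI.

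The genes that microglia share with other macrophages differed less between the types. Csf1r, the CSF1 and IL-34 receptor, stood in Tmem119.Immune nuclei at 913 and 923 CPM in controls and at 880 and 906 CPM in AgRP-Gq;POMC-Gi mice (906 ± 18.5), the smallest spread relative to the mean among the 7 members tested there. F13a1.Immune nuclei had 608 ± 59.8 CPM, and the ratio of 1.49 held between 1.32 and 1.73 in every library. In Ms4a4b.Immune nuclei Csf1r was at 179 ± 121 CPM and was seen in 14 of 61 nuclei, and outside the immune types the highest mean was 10.0 CPM, in ependymal cells.

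C1qa, the A chain of complement C1q, was read in F13a1.Immune nuclei at 801, 682, 560 and 1295 CPM (835 ± 323) and in Tmem119.Immune nuclei at 643, 773, 529 and 635 CPM (645 ± 100). The ranges overlapped, and the value of F13a1.Immune nuclei was the higher one in 3 of 4 libraries. A UMI was found in 72.7% of F13a1.Immune and 65.2% of Tmem119.Immune nuclei. Trem2, the lipid-sensing receptor that signals through Tyrobp, was lower in both, at 167 ± 32.3 CPM in Tmem119.Immune (184, 169, 120 and 193 CPM) and 76.1 ± 51.1 CPM in F13a1.Immune nuclei, where 1 library (AgRP-Gq;POMC-Gi replicate 1) had no UMI. It was seen in 26.5% of Tmem119.Immune nuclei.

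Levels of different genes are compared here per kb of gene model, which is one choice of length. Whether UMIs of these 3′ libraries rise with the length of a gene was not tested. On this scale the order in Tmem119.Immune nuclei was C1qa at 223 CPM per kb, Siglech at 92.2, Csf1r at 28.7, Tmem119 at 22.4, Trem2 at 21.5, P2ry12 at 18.5 and Cx3cr1 at 6.44. The order per kb thus differs from the order of CPM, in which Cx3cr1 came first. In F13a1.Immune nuclei C1qa also led, at 289 CPM per kb, before Mrc1 at 24.4 and F13a1 at 22.2. The value of Cx3cr1 rests on a gene model of 168.264 kb that is set by a single long transcript.

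Mrc1 and F13a1 differed most between Tmem119.Immune and F13a1.Immune nuclei, in the direction opposite to the 6 members above. Mrc1, the mannose receptor, stood at 2158, 3307, 2518 and 2051 CPM in F13a1.Immune nuclei (2508 ± 569) and in 78.4% of them, against 5.42 CPM in Tmem119.Immune nuclei, where 7 of 969 had a UMI. The latter mean rests on 10 UMIs, at 1.92, 1.90, 4.72 and 13.1 CPM by library. Outside the immune types mural cells were next at a mean of 11.2 CPM from 13 UMIs, between 0 and 27.0 CPM by library.

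F13a1, the A subunit of coagulation factor XIII, which tissue macrophages also make, was read in F13a1.Immune nuclei at 3391 and 6273 CPM in controls and at 3602 and 2995 CPM in AgRP-Gq;POMC-Gi mice (4065 ± 1493), and in 76.1% of these nuclei. No UMI was found in the 969 Tmem119.Immune nuclei, which allows up to 0.310% of nuclei with a UMI at this depth and does not limit the share that express the gene. Against a floor of 3 counts over the 4 libraries (1.56 CPM), F13a1 was at least 2611-fold higher in F13a1.Immune nuclei. Intervals and floors cover counting error only. The control replicate 2 library, which had 37 of the 88 F13a1.Immune nuclei, gave the highest value of both genes.

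**Figure D2:**
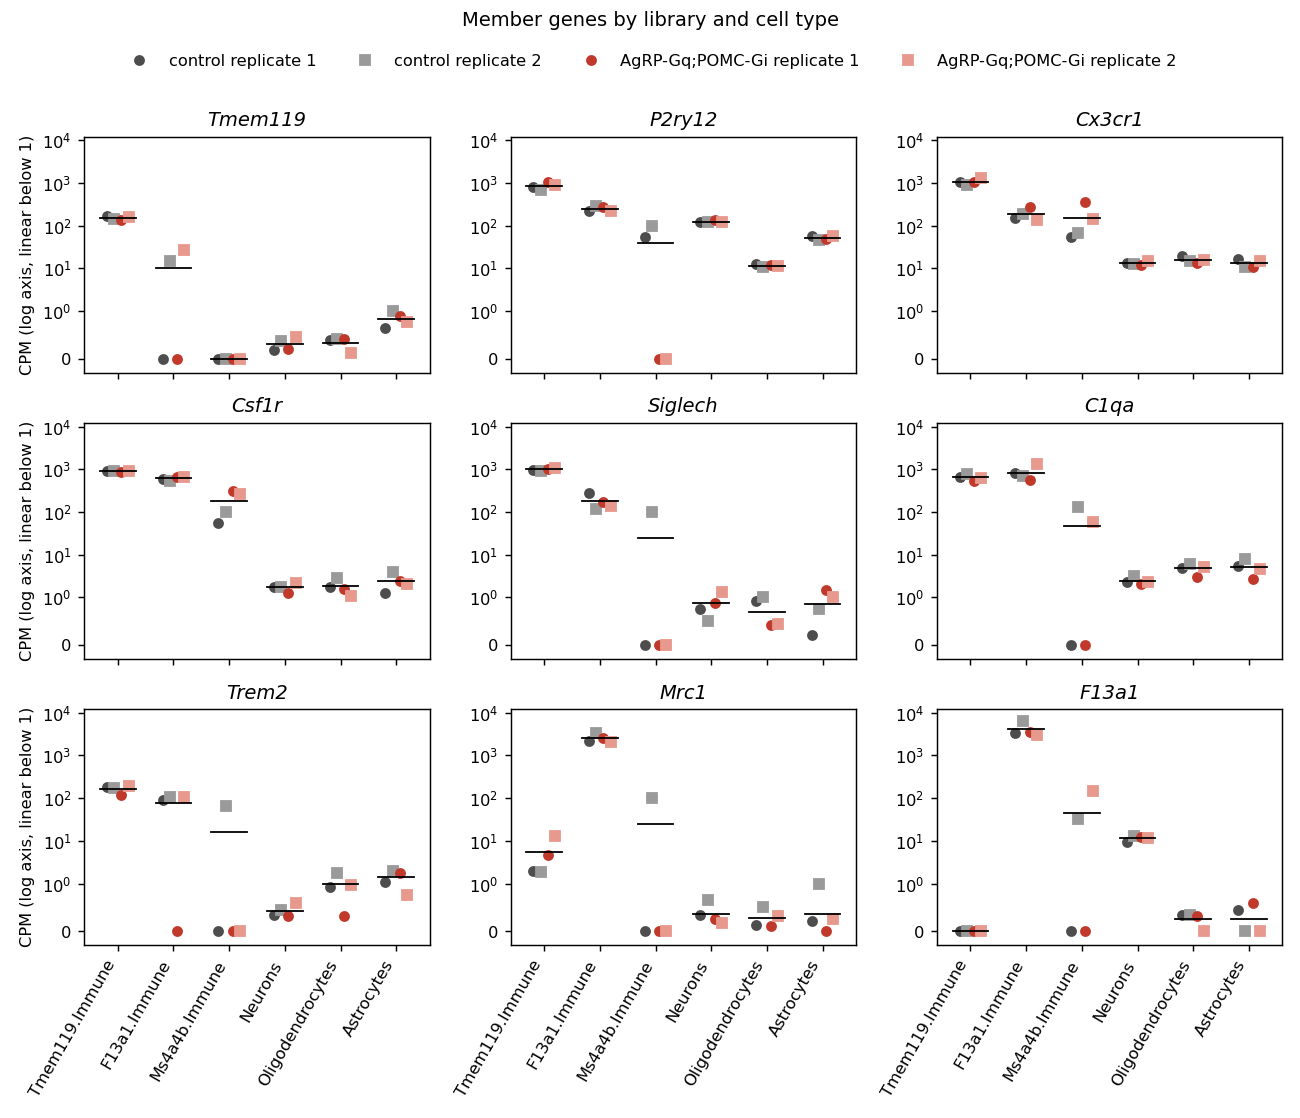
CPM of each member in the 3 immune types, neurons, oligodendrocytes and astrocytes, 1 panel per gene, on an axis that is logarithmic above 1 and linear below. Each point is a library (grey for control, red for AgRP-Gq;POMC-Gi, circles for replicate 1 and squares for replicate 2) and each line the mean of 4 libraries. Mrc1 and F13a1 lie at 2051 CPM or more in every F13a1.Immune library, whereas the C1qa values of Tmem119.Immune and F13a1.Immune nuclei overlap.

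Within single nuclei the members occurred together about as often as their shares alone would give. Tmem119.Immune nuclei had a median of 4 members with a UMI, 6 of 969 (0.619%) had none and 89.8% had at least 3 (55.5% after thinning). Of the pairs among the first 7 members, Tmem119 and Trem2 were found together in 78 nuclei where the product of their shares gives 65.5, the highest ratio at 1.19, and the lowest was 1.01. Nuclei also differ in depth, and the part of depth in these ratios was not tested. F13a1.Immune nuclei also had a median of 4 members, with at least 3 in 86.4%. In 77 of these 88 nuclei Mrc1 or F13a1 was seen, and in 73 of them another member as well. In Ms4a4b.Immune nuclei 37 of 61 had no member.

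Depth within the Tmem119.Immune type moved shares more than levels. With its nuclei split by depth into 3 classes, from the shallowest (320 nuclei, median 1286 UMIs) to the deepest (323 nuclei, median 2598 UMIs) the share with a P2ry12 UMI went from 62.5 to 86.1% and that with a Csf1r UMI from 64.7 to 89.5%. In CPM, P2ry12 was at 865 and 798 and Csf1r at 919 and 885. C1qa was the exception among the abundant members, at 872 CPM in the shallowest and 578 CPM in the deepest class, with shares of 59.4 and 73.1%. Between the same classes Cx3cr1 went from 1128 to 993 CPM and Siglech from 877 to 1043 CPM. Tmem119 went from 179 to 131 CPM and Trem2 from 199 to 154 CPM. The nuclei of 4 libraries were pooled for this, and no test was made.

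The members differed in how much of their signal came from outside the immune types. Of all UMIs of P2ry12, 91.3% came from other types, and this share was 66.6% for F13a1, 64.7% for Cx3cr1, 34.5% for C1qa, 29.8% for Trem2, 26.4% for Tmem119, 17.7% for Csf1r and 15.1% for Mrc1. For Siglech, Csf1r, Trem2 and Mrc1 the share of nuclei with a UMI was 0.065 to 0.488% in oligodendrocytes and 0.295 to 1.40% in the deeper neurons. Empty droplets and doublets were not examined, and no expression is read from shares this low. P2ry12 (2.61 and 58.7%), Cx3cr1 (4.18 and 12.1%) and F13a1 (0.071 and 7.35%) differed more between these types. C1qa had a UMI in 1.73% of all nuclei outside the immune types, and Tmem119 in 0.263%. For P2ry12 and Cx3cr1, a gene that shares their locus was expressed in some of the same types.

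P2ry12 (chr3:59216272-59262871, minus strand) lies wholly within Med12l (chr3:59005825-59318682, plus strand), a Mediator subunit gene, on the opposite strand. Whether reads were counted by strand is not given in the sources used here, and without strand the reads of both genes cannot be told apart. In neurons there were 0.542 P2ry12 UMIs for each Med12l UMI, at 0.53, 0.49, 0.59 and 0.54 in the 4 libraries. Across the 11 types outside the immune types this ratio ran from 0.381 in mural cells to 0.760 in endothelial cells, where it rests on 19 and 25 UMIs. In Tmem119.Immune nuclei it was 1.77 (1.60 to 2.21 by library) and in F13a1.Immune nuclei 1.72 (1.14 to 2.22). With the UMIs of 4 libraries summed, P2ry12 thus exceeded Med12l only in the Tmem119.Immune and F13a1.Immune types, although single libraries of types with few UMIs, such as endothelial cells, also had more P2ry12. Med12l was itself highest in Tmem119.Immune nuclei, at 485 ± 108 CPM against 232 ± 9.26 CPM in neurons. Over the 181 clusters outside the immune types, log2(CPM + 1) of both genes correlated with Pearson's r of 0.930 and Spearman's rho of 0.903, and over the 134 neuronal clusters with 0.793 and 0.776. These points share libraries and depth and are a description.

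Cx3cr1 (chr9:119901616-120069879, minus strand) has 2 transcripts of 19.614 and 21.197 kb and another, Cx3cr1-202, that runs to 166.668 kb and spans several neighbours. One of these is Ttc21a, a gene of the ciliary transport machinery on the opposite strand, with 30.188 kb inside the Cx3cr1 model. Wdr48 (5722 UMIs over all types) also overlaps the model on the opposite strand. Gorasp1 (853 UMIs), Csrnp1 (275) and Xirp1 (12) lie inside it on the same strand, and their part in Cx3cr1 counts was not tested. Ttc21a was read at 561 ± 84.5 CPM in ependymal cells (72.0% of nuclei), at 51.2 ± 39.7 CPM in choroid plexus and at 13.1 CPM in tanycyte-like cells, and it had no UMI in any of the 3 immune types. Cx3cr1 was found in 42.0% of ependymal and in 58.6% of choroid plexus nuclei, at 214 and 155 CPM. The choroid plexus libraries gave 0, 249.5, 159 and 211 CPM, the 0 from a library with 2 such nuclei, and the clusters with the most Cx3cr1 outside the immune types were 2 of choroid plexus at 273 and 221 CPM. Choroid plexus therefore had more Cx3cr1 than Ttc21a and ependymal cells less, and over the 181 clusters r was 0.513 and rho 0.102. The 3′ end of Csf1r also overlaps Hmgxb3, on the opposite strand, by 0.873 kb. Tmem119, Siglech, Trem2 and C1qa overlap no annotated gene.

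**Figure D3:**
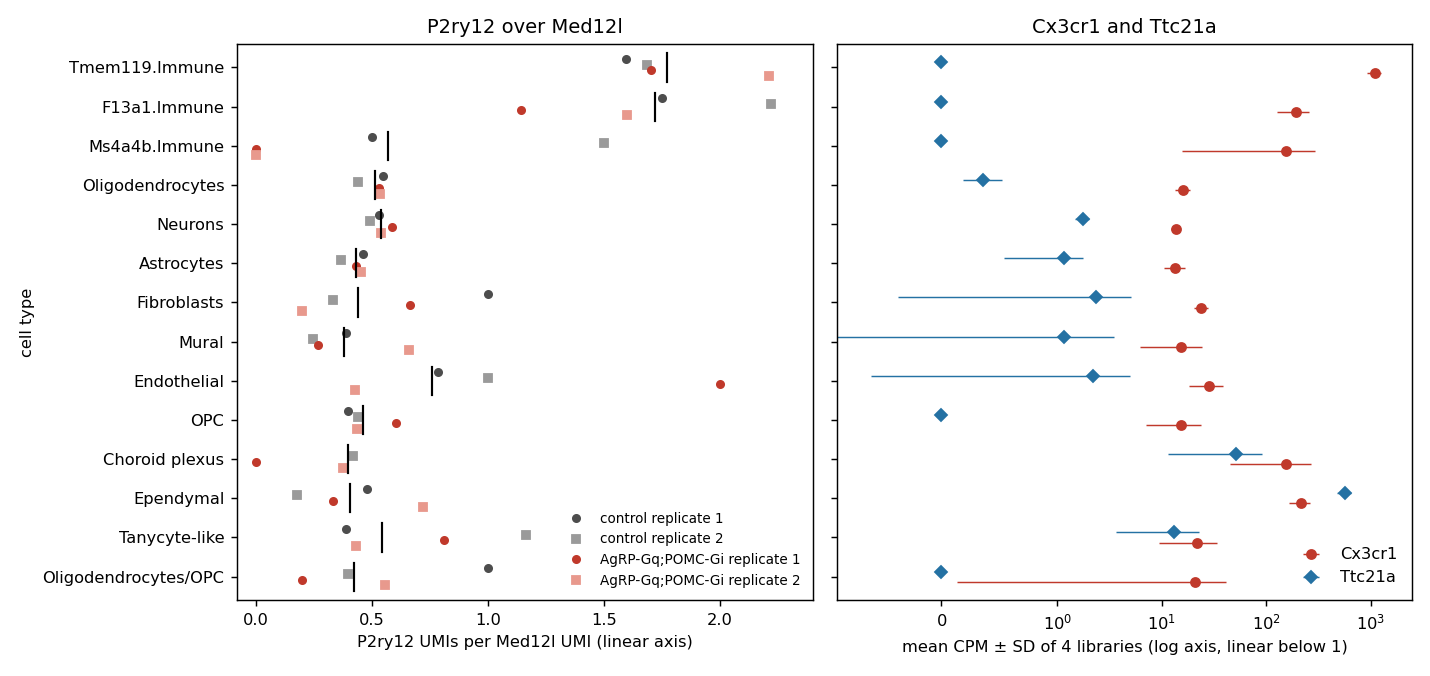
Left, P2ry12 UMIs per Med12l UMI by cell type on a linear axis, with a point for each library that has a Med12l UMI and a line for the ratio of the UMIs of all 4 libraries; right, mean CPM ± SD of 4 libraries of Cx3cr1 (circles) and Ttc21a (diamonds) by cell type, on an axis that is logarithmic above 1 and linear below. The ratio is 1.77 in Tmem119.Immune and 1.72 in F13a1.Immune nuclei and 0.542 in neurons, and ependymal cells have the highest Ttc21a at 561 CPM.

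F13a1 was also read in neurons. In neurons it stood at 11.6 ± 1.44 CPM, with a UMI in 7.35% of nuclei against 0.071% of oligodendrocytes. With nuclei thinned to 800 UMIs these shares were 1.04% and 0.0297%. Its 1458 neuronal UMIs were spread over 104 of the 134 neuronal clusters. Cluster 100, which the authors named after Dlk1 and F13a1, had 116 ± 53.1 CPM (45.0, 144, 109 and 167 CPM by library), a UMI in 35 of 98 nuclei and 5.83% of the neuronal UMIs. Among the 111 neuronal clusters with at least 50 nuclei, those named Reln/Pou4f1 (73.8 ± 46.9 CPM) and Tac1/Tafa2 (61.6 ± 53.2 CPM) followed by the mean of 4 libraries, with overlapping ranges. With the UMIs of all libraries pooled, the cluster named Casr/Slc6a2 came second, at 70.0 CPM (14 of 50 nuclei). These clusters were singled out after their values were seen. The tanycyte-like value of 31.2 CPM rests on 10 UMIs in 1 nucleus of control replicate 2. The antisense genes Gm30489, which lies within F13a1, and Gm49144, which overlaps it by 18.419 kb, were highest in F13a1.Immune nuclei at 311 and 229 CPM.

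The wider programmes around the members were read from lists of known genes. These lists were chosen with earlier results of these data known. The counts are therefore descriptions and no independent check, and no share over all genes is given beside them. Of 14 genes of homeostatic microglia, 12 were highest in Tmem119.Immune nuclei and 13 were higher there than in F13a1.Immune nuclei in each library. Tgfbr1, the TGF-beta receptor on which microglial identity depends, led with 2877 ± 46.2 CPM, followed by Inpp5d at 2672 ± 114, Cst3 at 2190 ± 482 and the phagocytic receptor Mertk at 2069 ± 155 CPM. The exceptions were Fcrls, at 187 CPM against 216 CPM in F13a1.Immune nuclei, and Sparc, which was highest in endothelial cells at 384 CPM.

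Of 12 genes of border macrophages, 12 were highest in F13a1.Immune nuclei, 9 were higher there than in Tmem119.Immune nuclei in each library and 7 had no UMI in Tmem119.Immune nuclei. Dab2, an endocytic adaptor, was at 1382 ± 507 CPM and the haemoglobin scavenger receptor Cd163 at 1060 ± 349 CPM, against 10.8 and 0.476 CPM in Tmem119.Immune nuclei. Maf (1736 ± 632 CPM) and the scavenger receptor Stab1 (1561 ± 598 CPM) were also expressed by Tmem119.Immune nuclei, at 500.2 and 237 CPM. Of the 10 genes of the complement and Tyrobp list 2, 3 and 5 were highest in Tmem119.Immune, F13a1.Immune and Ms4a4b.Immune nuclei. C1qc and C1qb stood beside C1qa, at 702 and 651 CPM in Tmem119.Immune and 850 and 739 CPM in F13a1.Immune nuclei.

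The genes most alike in pattern, by Pearson's r of log2(CPM + 1) over 13 cell types among 19150 genes with at least 100 UMIs, included other members and subunits of the same complex. C1qa was nearest to C1qc (r = 0.993) and C1qb (0.980), the other chains of C1q. Csf1r was nearest to Il21r (0.986), Fcgr1 (0.985) and Nckap1l (0.982), and Siglech to Zfp710 (0.967) and Csf1r (0.957). Tmem119 was nearest to Lag3 (0.918), Cx3cr1 to Rp2 (0.947), Trem2 to Gm26542 (0.961), Mrc1 to Tmem106a (0.976) and F13a1 to Ms4a7 (0.912). P2ry12 was nearest to Med12l (0.915), the gene it lies within. With 13 points that share their libraries these values are descriptions.

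Of 9 ligands of the members and of related macrophage receptors, 4 were highest in Tmem119.Immune or F13a1.Immune nuclei and 5 in other cell types. Il34 was highest in mural cells at 784 ± 268 CPM, followed by fibroblasts at 361 CPM, and Csf1 in oligodendrocytes at 90.3 CPM. Cx3cl1 was highest in tanycyte-like cells at 40.4 CPM, close to endothelial cells at 37.0 CPM and neurons at 36.6 CPM. Apoe, a lipid carrier bound by TREM2, was highest in F13a1.Immune nuclei at 5642 ± 646 CPM. Of the ligands of MERTK and its relatives, Pros1 was highest in Tmem119.Immune nuclei at 277 ± 52.9 CPM and Gas6 in F13a1.Immune nuclei at 202 CPM. Tgfb1 was highest in Tmem119.Immune nuclei at 141 CPM, Tgfb2 in tanycyte-like cells at 206 CPM and Cd200, a brake on macrophages, in endothelial cells at 264 ± 40.5 CPM.

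Whether CNO in AgRP-Gq;POMC-Gi mice changed the identity genes was tested against CNO in controls. No member rose or fell by edgeR's quasi-likelihood test at an adjusted p of 0.05. In Tmem119.Immune nuclei 0 of 7 tested members were called, as were 0 of all 6588 genes (0%), where 391 genes had an unadjusted p under 0.05 and DESeq2 called 0 genes, with 61 under that p. In F13a1.Immune nuclei 0 of 8 tested members were called against 1 of 6497 genes (0.0154%), and in Ms4a4b.Immune nuclei 8 of 5869 genes (0.136%) were called, none of them a member. Over 13 types 32 member tests could be made and 1 had an unadjusted p under 0.05. The 88 F13a1.Immune nuclei gave standard errors of 0.41 to 1.00 on the log2 scale for the members, against 0.16 to 0.22 in Tmem119.Immune nuclei.

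The member with the lowest p was P2ry12 in Tmem119.Immune nuclei. As given above, both libraries of AgRP-Gq;POMC-Gi mice were above both controls in CPM, with a log2 fold change of 0.43 ± 0.17 (SE), an unadjusted p of 0.0243 and an adjusted p of 0.819. With a library left out it ran from 0.25 to 0.61, and the adjusted p over all alternatives from 0.597 to 0.99996. Cx3cr1 was also higher in CPM in both AgRP-Gq;POMC-Gi libraries, at 0.30 ± 0.16 (adjusted p = 0.864), and C1qa lower, at -0.28 ± 0.17 (adjusted p = 0.885). With a library left out Cx3cr1 ran from 0.20 to 0.42 and C1qa from -0.40 to -0.14. Siglech was at 0.14 ± 0.16, Trem2 at -0.17 ± 0.22, Tmem119 at -0.04 ± 0.20 and Csf1r at -0.03 ± 0.16. For 5 of these 7 members the groups did not overlap in CPM (P2ry12, Cx3cr1, Csf1r, Siglech and C1qa), as for 35.5% of all genes tested. Mrc1 and F13a1 were under the detection limit of 5% of nuclei in Tmem119.Immune and were not tested there.

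In F13a1.Immune nuclei F13a1 had a log2 fold change of -0.60 ± 0.41, and Mrc1 was at -0.31 ± 0.41. The groups overlapped for both, and 1 of 8 members (Csf1r, 0.21) did not overlap, as for 32% of all genes tested. The adjusted p of each member tested there was 0.998 by edgeR. Neurons gave P2ry12 at 0.16 ± 0.11 (adjusted p = 0.814), with 0 of 12115 genes (0%) called. Without AgRP-Gq;POMC-Gi replicate 2 the neuronal value of P2ry12 was 0.30 and was called by edgeR (adjusted p = 0.0112), in a fit that called 2044 of 12125 genes (16.9%). Whether reads of Med12l enter this value was not tested.

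**Figure D4:**
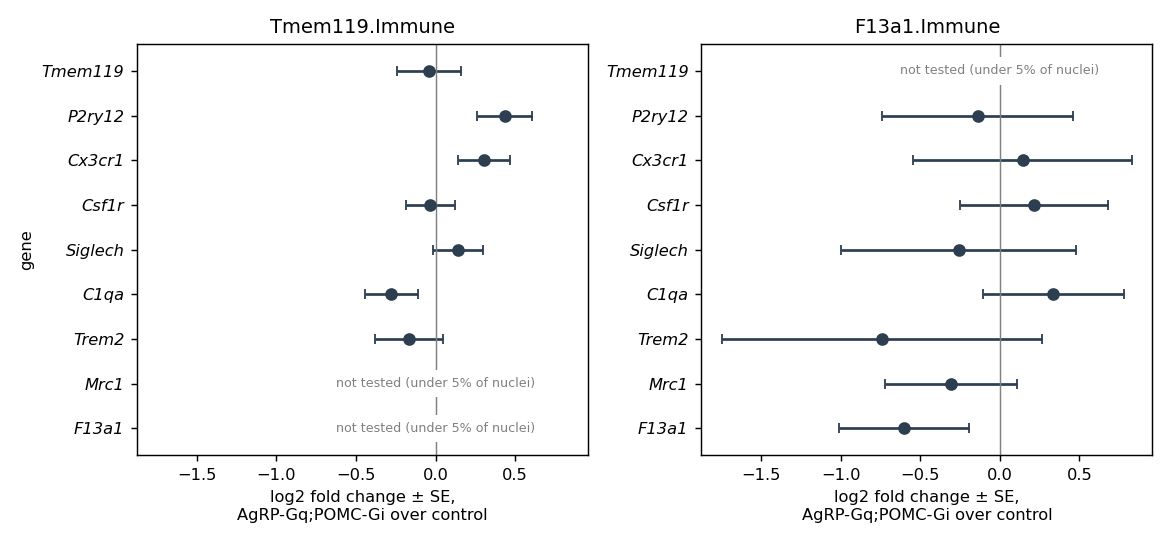
Log2 fold change of each member, AgRP-Gq;POMC-Gi over control, in Tmem119.Immune (left) and F13a1.Immune nuclei (right), with the edgeR estimate from 2 libraries against 2 as a point and its standard error as a bar. No member was called in either type, and the errors are wider in F13a1.Immune nuclei, where F13a1 stood at -0.60 ± 0.41.

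The share of all kept nuclei named Tmem119.Immune was 2.51 and 2.59% in controls and 2.31 and 2.41% in AgRP-Gq;POMC-Gi mice, a difference of -0.186 percentage points. The groups did not overlap, and the two-sided exact permutation test gave p = 0.333, the smallest p that 2 libraries against 2 allow. Neurons made up 25.4 and 27.2% of kept nuclei in controls and 38.0 and 36.5% in AgRP-Gq;POMC-Gi mice. The whole of which these shares are taken thus differed between the groups, and shares of non-neuronal nuclei were not computed. The difference is therefore no measure of microglial number. For F13a1.Immune the shares were 0.154, 0.368, 0.175 and 0.191% (exact permutation p = 1), and for Ms4a4b.Immune 0.113, 0.149, 0.144 and 0.211% (exact permutation p = 0.667).

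The genotype effect was also compared between Tmem119.Immune and F13a1.Immune nuclei in 1 model with the library as a block. None of the 6 members tested was called (adjusted p = 0.9997 by edgeR), where 2 of 5465 genes (0.0366%) were called. The wider lists gave no call in either type. In Tmem119.Immune nuclei the median log2 fold change of the 14 homeostatic genes was -0.01, and that of all genes tested was -0.00. The 8 tested genes of the complement and Tyrobp list had a median of -0.09, and 2 of them, Itgam (0.44) and C3ar1 (0.71), had an unadjusted p under 0.05. On the other lists so had Smad3 (0.48), Apoe (-0.44) and Cd9 (-0.53), and none of these 5 genes was called (adjusted p = 0.819 for each by edgeR). Of all 6588 genes tested in this type, 391 had an unadjusted p under 0.05. In F13a1.Immune nuclei the 11 tested border macrophage genes had a median of -0.68 against -0.05 over all genes. Of these 11 genes 7 had estimates below 0 and 4 above it, Cd36 (1.5), Mgl2 (0.80), Clec10a (0.56) and Dab2 (0.06), and none was called. The sum of 6 border macrophage markers was 11612 CPM in control replicate 2 and 6423 to 7398 CPM in the other 3 libraries, and in AgRP-Gq;POMC-Gi replicate 2 the neuron and astrocyte markers summed to 1565 and 1430 CPM, above the others. Their part in this median was not tested. On the same list, Stab1 and Cbr2 (-1.43) had an unadjusted p under 0.05 (adjusted p = 0.998 by edgeR), as had 270 of all 6497 genes tested in F13a1.Immune nuclei.

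Among the genes of these lists, 2 passed the test in other cell types. Il34, the CSF1R ligand, was lower in mural cells of AgRP-Gq;POMC-Gi mice, at 527 and 591 CPM against 1084 and 936 CPM in controls, from 78 and 158 against 580 and 401 UMIs. The log2 fold change was -0.81 ± 0.20 (edgeR, adjusted p = 0.0329), in a type where 25 of 5723 genes (0.437%) were called. The call was lost with DESeq2 (adjusted p = 0.192) and when control replicate 1 (0.881), control replicate 2 (0.522) or AgRP-Gq;POMC-Gi replicate 2 (0.533) was left out, and it held in the other 5 alternatives. The log2 fold changes of Il34 in the fits that lost the call were -0.80, -0.70, -0.91 and -0.85. In fibroblasts, the next source of Il34, the values were 562, 240, 363 and 278 CPM and the groups overlapped.

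Mertk, which clears apoptotic cells and binds the Gas6 and Pros1 named above, was lower in oligodendrocyte precursor cells (OPC) of AgRP-Gq;POMC-Gi mice, at 282 and 248 CPM against 604 and 563 CPM. The log2 fold change was -1.09 ± 0.15 (edgeR, adjusted p = 0.00223), where 4 of 9016 genes (0.0444%) were called. The call was lost without control replicate 1 (-1.04, adjusted p = 0.12) and without control replicate 2 (-1.14, adjusted p = 0.9999), with folds of like size, and it held in the other 7 alternatives. Astrocytes, which express more Mertk, had 1035 and 907 CPM in controls and 663 and 533 CPM in AgRP-Gq;POMC-Gi mice (-0.64, adjusted p = 0.191), in the same order of groups. Estimates below 0 were also found in F13a1.Immune (-0.47), mural (-0.58), fibroblast (-0.78), ependymal (-1.44), tanycyte-like (-0.39) and Oligodendrocytes/OPC nuclei (-1.83), none of them called (adjusted p of Mertk from 0.4997 to 0.9998 by edgeR), while endothelial cells were at 0.09. In Tmem119.Immune nuclei, where Mertk was highest, it stood at 2107, 2085, 2227 and 1857 CPM (-0.02, adjusted p = 0.985) and the groups overlapped. Whether RNA of astrocytes in OPC droplets took part in the OPC difference was not tested.

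**Figure D5:**
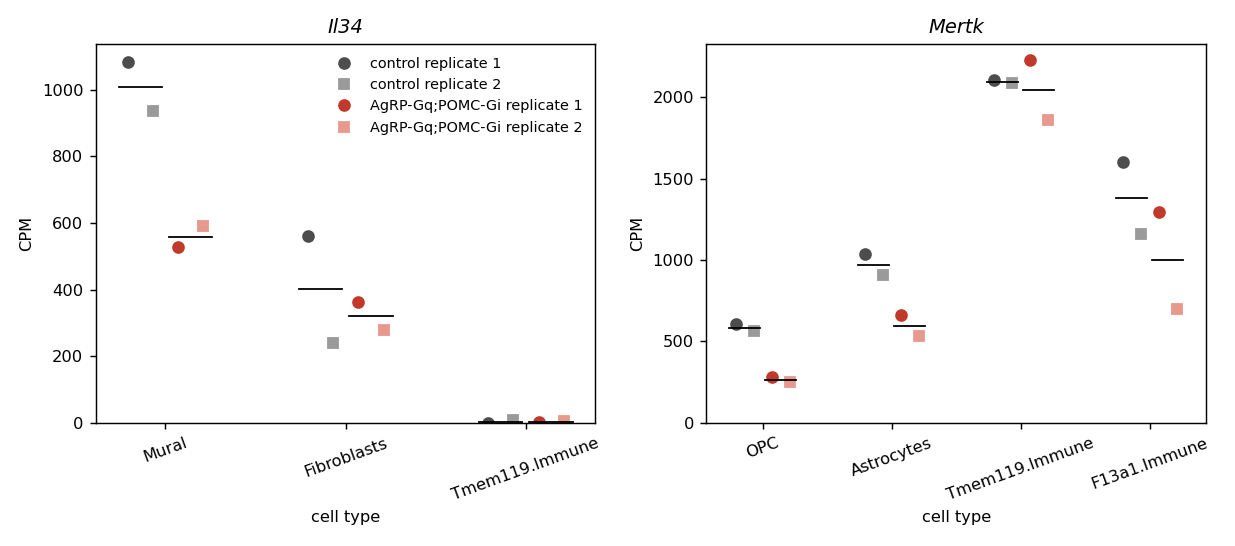
CPM per library of Il34 in mural cells, fibroblasts and Tmem119.Immune nuclei (left) and of Mertk in OPC, astrocytes, Tmem119.Immune and F13a1.Immune nuclei (right), with control libraries in grey, AgRP-Gq;POMC-Gi libraries in red, a line for the mean of each genotype and axes from 0. Il34 in mural cells and Mertk in OPC are lower in both AgRP-Gq;POMC-Gi libraries, while Mertk in Tmem119.Immune nuclei lies between 1857 and 2227 CPM.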

How the data were processed

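For each 10x Genomics 3′ library the authors deposited 1 matrix of UMI counts made with Cell Ranger 7.0.0 on GRCm38. Their table of nuclei, made with Seurat 4.3.0, gives the kept nuclei, the cluster and the cell type, and the deposited mitochondrial percent on which, with at least 800 UMIs and 500 genes and at most 10%, they filtered. It also holds scores of the authors' own comparison, which were not used, nor was the joined matrix. Of 44303 barcodes 39461 were kept. 3937 of the 4842 left out met the stated filter. The study's methods also name a doublet step with scDblFinder, and no doublet caller was run here. The annotation release and the use of strand in counting are not given in the sources used here.

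UMIs were summed per library and cell type and scaled to CPM, with shares given exact Clopper-Pearson 95% intervals and nuclei thinned to 800 UMIs. Depth was 48904976 to 53089402 UMIs per library in kept nuclei. Genotypes were compared with edgeR 4.0.16 in R 4.3.3 (quasi-likelihood test, TMM factors, genes in at least 5% of nuclei, types with at least 5 nuclei in each library, Benjamini-Hochberg adjustment over all genes tested). On simulated data this test missed nearly all of the changes set in F13a1.Immune nuclei and part of those set in Tmem119.Immune nuclei. Alternatives were library size without TMM, DESeq2 1.42.0, no gene filter, filterByExpr, leaving out each library in turn and a block for the replicate number. Gene positions and overlaps were read from an annotation of GRCm38 and promoters from RefSeq.

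The members and lists were chosen with earlier results of these data known. Named are all members, the 4 leading genes of a list and exceptions to its pattern. Also named are up to 3 of the genes most alike to a member and list genes past the test. Clec7a, of a list of activated microglia, was not found.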

Additional observations from a re-analysis of the deposited data

Results flagged for a closer look

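In the comparison of the genotype effect between F13a1.Immune and Tmem119.Immune nuclei, 2 genes passed edgeR's interaction test, and neither is an identity gene. Ntm differed by 3.59 ± 0.77 on the log2 scale (adjusted p = 0.00843) and Lsamp by 2.58 ± 0.53 (adjusted p = 0.00735), both with a higher genotype effect in F13a1.Immune nuclei. Both encode cell adhesion molecules of neural cells. Lsamp stood at 61.7 and 445 CPM in controls and 105 and 3211 CPM in AgRP-Gq;POMC-Gi F13a1.Immune nuclei, and the highest value rests on 119 UMIs from 19 nuclei. In Tmem119.Immune nuclei it was at 255 and 567 against 972 and 120 CPM. Ntm was at 30.8 and 193 against 175 and 540 CPM in F13a1.Immune and at 94.0 and 162 against 49.5 and 17.5 CPM in Tmem119.Immune nuclei. In the F13a1.Immune nuclei of AgRP-Gq;POMC-Gi replicate 2, where both genes were highest, 5 neuron markers summed to 1565 CPM and 5 astrocyte markers to 1430 CPM, above the other 3 libraries. Their part in the result was not tested. With control replicate 1, control replicate 2 or AgRP-Gq;POMC-Gi replicate 2 left out 0 genes were called, and 6 with AgRP-Gq;POMC-Gi replicate 1 left out.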

How the results depend on the processing

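9 of 9 members were highest in an immune type under each setting tried, and 6 were higher in Tmem119.Immune than in F13a1.Immune nuclei in every library, or 4 with nuclei of at least 2000 UMIs only. Of 149 log2 fold changes under alternatives, 12 changed sign, each with a library left out, and none was past the threshold. Their ranges over libraries left out were, in Tmem119.Immune nuclei, -0.13 to 0.057 for Tmem119 and -0.49 to 0.085 for Trem2. In F13a1.Immune nuclei they were -0.36 to 0.25 for P2ry12, -0.44 to 0.57 for Cx3cr1, -0.78 to 0.27 for Siglech, -0.45 to 0.78 for C1qa, -5.15 to 0.066 for Trem2 (the lowest against a group at 0, where the size is no measure), -0.63 to 0.14 for Mrc1 and -1.02 to 0.023 for F13a1. With a library left out, the remaining single library was assumed to vary like the others. Counts of called genes moved more. In Tmem119.Immune nuclei 0 to 7 genes were called with a library left out. In F13a1.Immune nuclei it was 0 by DESeq2, 0 with filterByExpr, 3 with no filter and 0 to 12 with a library left out. In the 11 other types 90 genes were called, against 185 without TMM, 205 by DESeq2, 914 with no filter and 196 to 2845 with a library left out, the most without AgRP-Gq;POMC-Gi replicate 2. The interaction gave 2 genes, 1 without TMM, 5 with filterByExpr and 0 to 6 with a library left out. Over 401 fits of members 2 were called, P2ry12 in neurons as given above and F13a1 in tanycyte-like cells with no filter (-6.16, adjusted p = 0.0125), where it rests on 1 nucleus and the other group is at 0. The tanycyte-like fit with no filter called 48 of 17264 genes (0.278%), and no share over all genes was set beside the 401 fits. The cause of the moves in these counts was not tested.

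The replicate numbers are in the labels of both groups, but no shared batch is named. Choroid plexus nuclei numbered 2 (control) and 6 (AgRP-Gq;POMC-Gi) in the replicate 1 libraries, and 436 and 329 in those of replicate 2. What led to this difference was not tested. Deviations of same-numbered libraries correlated with r of 0.07 in Tmem119.Immune and 0.05 in F13a1.Immune nuclei, and between -0.45 and 0.34 over the 13 types. With the replicate number as a block 0 genes were called in F13a1.Immune nuclei, 924 in the other types and 0 in the interaction, which could then hold no library block. The 88 F13a1.Immune and 61 Ms4a4b.Immune nuclei limit what could be seen there.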

Other observations

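Lists of activation, inflammation and transcription factor genes were also read. Of the 9 genes found from a list of disease-associated microglia, 0 were highest in this type. Cd9 stood at 140 CPM there, the lysosomal gene Cd68 at 44.2, Spp1 at 20.5 and the receptor Axl at 5.0 CPM, against 110 CPM of Axl in F13a1.Immune nuclei. Of 12 inflammatory genes 3 were highest in each of the 3 immune types and 3 in endothelial cells. Of these 12 genes, 2 had no UMI in Tmem119.Immune and 4 none in F13a1.Immune nuclei. The Ms4a4b.Immune type had 103052 UMIs of all genes and F13a1.Immune 165522, so that few UMIs can set such a rank. Among them Tlr4 was at 99.7 CPM in Tmem119.Immune and 202 CPM in F13a1.Immune nuclei, Nlrp3 at 60.5 and 50.8, Nfkbia at 46.5 and 100.2, and Il1a at 36.3 and 7.7 CPM. Of 10 myeloid transcription factors 7 were highest in Tmem119.Immune nuclei. Ikzf1 was at 1132 CPM against 249 in F13a1.Immune nuclei and Mef2a at 2614 against 1312, while Mef2c (1357 and 1346 CPM) and Runx1 (997 and 999 CPM) stood at like levels in both.

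Among the 4842 barcodes that the authors left out, 144 had a UMI of at least 3 members, and 141 of these met the stated filter. Those 141 barcodes had a median of 6301 UMIs, and 51.1% of them also had a UMI of Mog, a gene of oligodendrocytes. The study's methods name a doublet step, and which barcodes it marked was not analysed here. The 141 enter no comparison.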
